A study of Mus musculus with 5 samples.

Results

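Autophagy and lysosome genes were followed in newborn mouse ovaries that lack Lhx8, a LIM homeodomain transcription factor made by oocytes. The 37 genes were chosen by name, with earlier results of these data known. All probe sets whose single gene symbol was on the list were taken. All 37 were measured, by 90 probe sets, among the 18193 genes with a singly named probe set on the arrays. The list was split into 15 genes of initiation and membrane supply, 16 genes of conjugation and cargo binding, and 6 lysosome genes. RNA came from whole ovaries taken at postnatal day 0.5 from females of a C57/BL6 and 129SVEV hybrid background. The groups were 3 pools from Lhx8 null and 2 pools from wild type mice, each of 50 ovaries and so of at least 25 animals, on 1 array per pool. The labels name no treatment other than tissue storage and do not describe the construction of the null allele. The comparison asked which transcripts differ in the newborn ovary when Lhx8 is lost.

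Autophagy encloses cytoplasm in a double membrane, the autophagosome, and delivers it to the lysosome for breakdown. The ULK kinase complex and the class III phosphoinositide kinase complex around BECN1 start the membrane. Enzymes related to those of ubiquitin transfer then attach proteins of the ATG8 family (the LC3 and GABARAP proteins) to it, and lysosomal proteases digest what arrives. In mice the pathway is known for its part in keeping germ cells alive around birth, when many oocytes are lost.

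Values are array signals in intensity units, as deposited. Differences are null minus wild type on the log2(signal + 16) scale after quantile normalization, with the SE and Benjamini-Hochberg adjusted p of limma's two-sided test across 10916 genes, and a gene passed at an adjusted p below 0.05. Each gene is given by its brightest probe set unless another is named. Signals of Lhx8 were 159 to 347.4 in null pools against 5223.1 and 6450.1 in wild type pools, a difference of -4.45 (SE 0.29, adjusted p = 1.08e-05). Replicates correlated at 0.960 to 0.974 within groups over all probe sets. The mean signal of BioC, a hybridisation control, was higher in the null group by a factor of 2.12. The Actb 3' to 5' ratio, which grows as RNA degrades, ranged from 1.48 to 1.69 in null pools and was 1.39 and 1.43 in wild type pools. Their part in the results was not tested. The summed signal of 15 germ cell and oocyte markers was 8420.1 to 12606.3 on null arrays against 87279.7 and 95860 on wild type arrays, and all 15 fell. That of 16 macrophage markers was 14254 to 16675.2 against 4648.2 and 4958.1, with 13 of the 14 tested higher. Oviduct epithelium, stromal and endothelial markers were higher too, in 8 of 9, 11 of 11 and 7 of 10 tested, and 9 of 10 granulosa markers were lower. In whole ovaries, fewer cells of a type cannot be told apart from less RNA per cell.

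Of the 37 genes, 36 were bright enough to be tested and 16 passed, 5 higher and 11 lower in null ovaries. The 44.4% that passed lies near the 47.8% of all tested genes that did (25.6% higher and 22.3% lower). Their median difference was -0.04, against 0.04 over all tested genes. Of the 36 tested genes, at their brightest probe sets, Atg12 alone changed by 2-fold or more.  The conjugation genes passed in 10 of 16 cases, with 3 higher and 7 lower. The initiation genes passed in 4 of 15 (1 higher, 3 lower), and the lysosome genes in 2 of 5 (1 higher, 1 lower). The normalised arrays of the groups did not overlap for 26 of the 36 genes, against 67.8% of all tested genes.

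**Figure D1:**
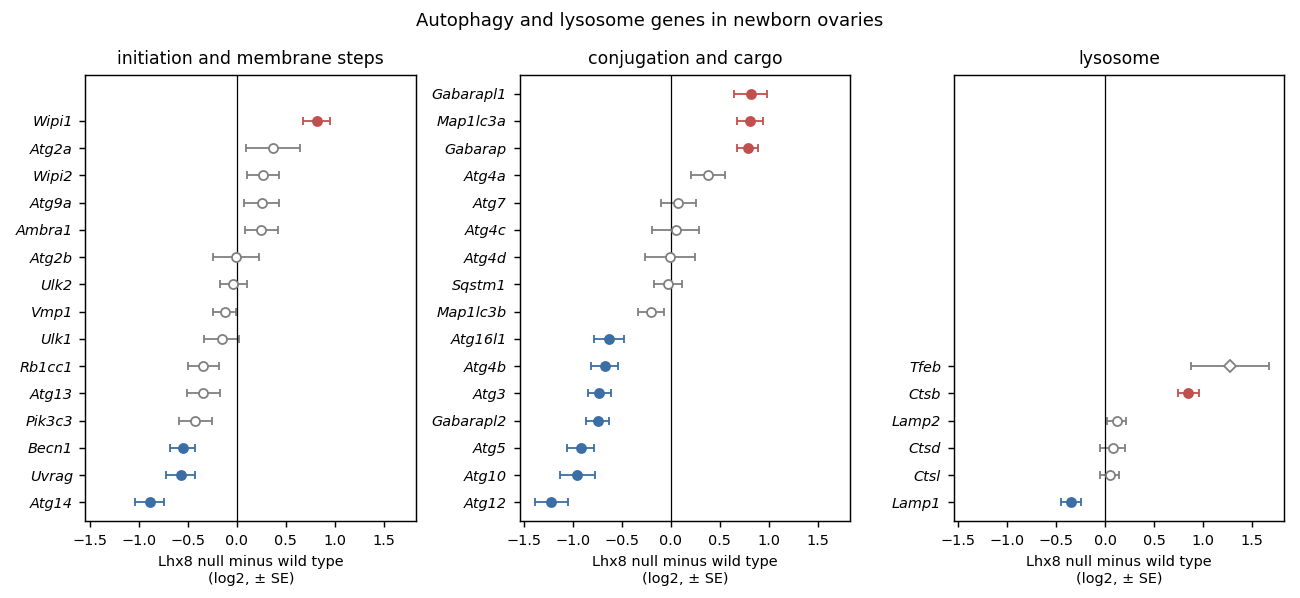
Difference between Lhx8 null and wild type ovaries for each gene (x axis, log2 scale, mean ± SE, 3 null and 2 wild type arrays), in 3 panels by step. Filled symbols passed the test (red higher, blue lower), open circles did not, and the open diamond is Tfeb, too dim for the main test; the largest fall is Atg12 at -1.22.

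The ULK complex genes did not pass. Ulk1, the kinase gene that starts autophagosome formation, read 731.5, 651.2 and 621.2 in null replicates 1, 2 and 3, and 903.5 and 619 in wild type replicates 2 and 3. The groups overlapped, and the difference was -0.15 (SE 0.18, adjusted p = 0.507). Its relative Ulk2 had -0.04 (SE 0.14). Rb1cc1, which encodes the scaffold of the complex, had -0.34 (SE 0.15, adjusted p = 0.0999), and Atg13, the gene of a regulatory subunit, also -0.34 (SE 0.17, adjusted p = 0.124). At these probe sets of Rb1cc1 and Atg13 every null array lay below both wild type arrays. The other Atg13 probe set above the brightness cutoff went the other way. It read 316.2, 356.9 and 334.6 in null against 254.7 and 202.8 in wild type ovaries (0.41, SE 0.21) and did not pass. With each array centred on its median Rb1cc1 and Atg13 both passed at their brightest probe sets, at -0.63 and -0.53. The mean of its probe sets put Atg13 at 0.10 (adjusted p = 0.711), and Rb1cc1 also passed without null replicate 1 (-0.43, adjusted p = 0.0327).

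Of 5 genes of the lipid kinase complex around BECN1 and its regulators, Atg14, Becn1 and Uvrag fell and Pik3c3 and Ambra1 did not pass. Atg14, whose product brings the complex to sites of autophagosome formation, read 503.5, 447.6 and 517.2 in null ovaries against 995.8 and 862.6 in wild type ovaries. All null values lay below both wild type values, with means of 489 ± 36.9 (SD, n = 3) and 929 ± 94.2 (SD, n = 2), and the level fell by 0.89 (SE 0.15, adjusted p = 0.00136). Becn1 itself read 1808.5, 2122.5 and 2202.9 against 3185.3 and 3009.9, again without overlap. Its means were 2045 ± 208 (SD, n = 3) and 3098 ± 124 (SD, n = 2), a fall of 0.55 (SE 0.13, adjusted p = 0.00649).

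Uvrag, whose product takes the place of ATG14 in a form of the complex that acts on endosomes, read 705.6, 691.3 and 764.3 in null and 1222.5 and 988 in wild type ovaries. It fell by 0.57 (SE 0.15, adjusted p = 0.0118). With wild type replicate 2 left out it did not pass (-0.43, adjusted p = 0.101). Such a fit keeps 1 wild type array, takes its spread from the null arrays alone and assumes that the lone array varies as they do. Pik3c3, the catalytic subunit gene, read 744.3, 899.7 and 988.6 against 1117.2 and 1324, also without overlap, but did not pass (-0.42, SE 0.17, adjusted p = 0.0649). It passed with the deposited scaling (-0.47, adjusted p = 0.0368) and with median centring. Ambra1, a regulator of BECN1, had 0.25 (SE 0.17).

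Genes for membrane supply and membrane readers included the 1 riser of this step. Wipi1, a phosphoinositide-binding propeller protein gene, read 1299.5, 1492.3 and 1505.4 in null ovaries against 850 and 809.8 in wild type ovaries. The mean rose from 830 ± 28.4 (SD, n = 2) to 1432 ± 115 (SD, n = 3), a log2 difference of 0.81 (SE 0.14, adjusted p = 0.00125). Wipi2, its relative that recruits ATG16L1, did not pass at its brightest probe set (0.27, SE 0.17). The other probe set of Wipi2 above the brightness cutoff read 389.6, 439.3 and 323.5 against 841.9 and 774.9. That one fell by 1.06 (SE 0.18, adjusted p = 0.00462 over all probe sets), so the direction for Wipi2 depends on the probe set. The lipid transfer protein genes Atg2a (0.37, SE 0.28) and Atg2b (-0.01, SE 0.24), the lipid scramblase genes Atg9a (0.25, SE 0.18) and Vmp1 (-0.13, SE 0.12) did not pass. Vmp1 fell, by 0.43 (adjusted p = 0.0494), after median centring.

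In the conjugation step the genes of the ATG12 branch were lower, apart from that of the activating enzyme. ATG12 is joined to ATG5 through ATG7 and ATG10, and the product binds ATG16L1 to direct ATG8 proteins to the membrane. Atg12 read 1025.3, 954.3 and 738.5 in null ovaries against 2021.7 and 2360.4 in wild type ovaries. Its means were 906 ± 149 (SD, n = 3) and 2191 ± 239 (SD, n = 2), a difference of -1.22 (SE 0.17, adjusted p = 0.000462), or 2.33-fold lower.

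Atg5 read 911, 816.8 and 848.5 against 1560.8 and 1853.5, with no overlap and little spread among the null arrays. Its means were 859 ± 47.9 (SD, n = 3) and 1707 ± 207 (SD, n = 2), a fall of 0.92 (SE 0.14, adjusted p = 0.000735). Atg10, the gene of the transfer enzyme for ATG12, read 285.3, 284.2 and 325.6 against 622.1 and 515.9 and fell by 0.95 (SE 0.18, adjusted p = 0.00237). Atg16l1, whose product places the conjugate on the membrane, read 426.3, 397.8 and 418.9 against 687.5 and 599.7 and fell by 0.63 (SE 0.15, adjusted p = 0.00809). Atg16l1 did not pass with wild type replicate 2 left out (-0.55, adjusted p = 0.0665), nor when averaged with a probe set close to background (-0.08).

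Atg7, the gene of the activating enzyme shared by both branches, read 350, 411.8 and 357.4 against 351.5 and 316.8. The groups overlapped, and the difference was 0.07 (SE 0.18, adjusted p = 0.764). Its dimmer probe sets had -0.69 and 0.87, and neither passed.

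**Figure D2:**
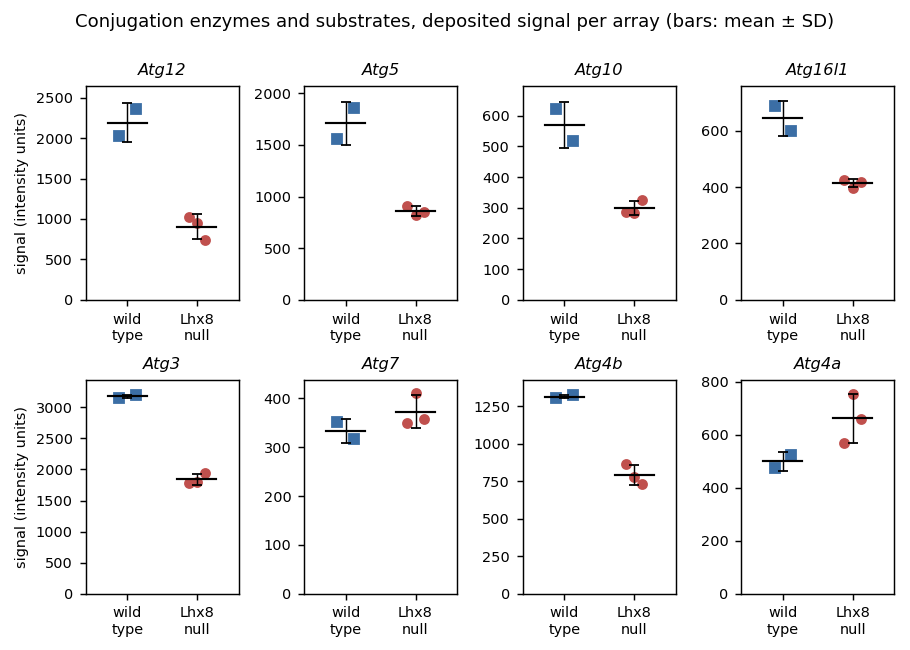
Deposited signal (y axis, intensity units, from 0) of 8 conjugation genes in 2 wild type (blue squares) and 3 Lhx8 null (red circles) arrays, with the mean and SD in black. Null arrays lie below both wild type arrays for Atg12, Atg5, Atg10, Atg16l1, Atg3 and Atg4b, while Atg7 differs by 0.07 and Atg4a by 0.37 on the normalised log2 scale and neither passed.

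The enzymes that act on ATG8 proteins divided in the same step. Atg3, the transfer enzyme gene of this branch, read 1780.1, 1803.2 and 1940.8 in null and 3158 and 3196.4 in wild type ovaries. Its means were 1841 ± 86.9 (SD, n = 3) and 3177 ± 27.2 (SD, n = 2), a fall of 0.73 (SE 0.11, adjusted p = 0.000898). ATG4 proteases trim ATG8 proteins before conjugation and release them afterwards. Of their 4 genes only Atg4b passed, with 865.7, 778.5 and 734.4 against 1305.7 and 1322.8 (-0.67, SE 0.14, adjusted p = 0.00351). Atg4a, at 569.3, 753.3 and 660.9 against 474.3 and 524.4, was higher on every null array without passing (0.37, SE 0.17, adjusted p = 0.106), and did pass without null replicate 1 (0.49, adjusted p = 0.0263). Atg4c and Atg4d had 0.05 (SE 0.24) and -0.01 (SE 0.25). Averaged with the other probe sets of the same genes, Atg3 (-0.28) and Atg4b (-0.31) no longer passed. The other Atg3 probe set lay below the brightness cutoff, at 6 to 33.3. For Atg4b the average took in a probe set below the cutoff and another above it at -0.40 (SE 0.13), which did not pass.

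The ATG8 family moved in both directions. Gabarap read 9762.7, 9001.4 and 8677.7 in null ovaries against 4896.4 and 5309 in wild type ovaries. Its mean rose from 5103 ± 292 (SD, n = 2) to 9147 ± 557 (SD, n = 3), by 0.78 (SE 0.11, adjusted p = 0.000407). Gabarapl1 read 3530.5, 3513.1 and 2559.8 against 2015.7 and 1736.8, with null replicate 3 the lowest of its group yet above both wild type arrays, and rose by 0.81 (SE 0.17, adjusted p = 0.0038). Map1lc3a, which encodes the LC3A protein, read 7747.2, 6357.5 and 6226.1 against 3964.1 and 3710, and also rose by 0.81 (SE 0.14, adjusted p = 0.00132).

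Gabarapl2 went the other way, and its 3 null arrays were nearly equal. It read 1750.9, 1738.1 and 1725.2 against 2854.7 and 3238.8, with means of 1738 ± 12.8 (SD, n = 3) and 3047 ± 272 (SD, n = 2). The difference was -0.75 (SE 0.12, adjusted p = 0.00096). Map1lc3b, the gene of the LC3B protein that commonly serves as a marker of autophagosomes, read 4265.9, 6192.8 and 5116.8 against 5852.1 and 5776.6. The null arrays spanned the wild type values, with -0.21 (SE 0.13, adjusted p = 0.233), and its 2 other bright probe sets had 0.18 and 0.28. Sqstm1, the gene of the cargo receptor p62, overlapped between groups at 3604.4, 4711.8 and 3871.3 against 4711.7 and 3791.6 (-0.03, SE 0.14, adjusted p = 0.871). Protein lipidation and turnover, by which LC3B and p62 are usually read, were not measured here.

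**Figure D3:**
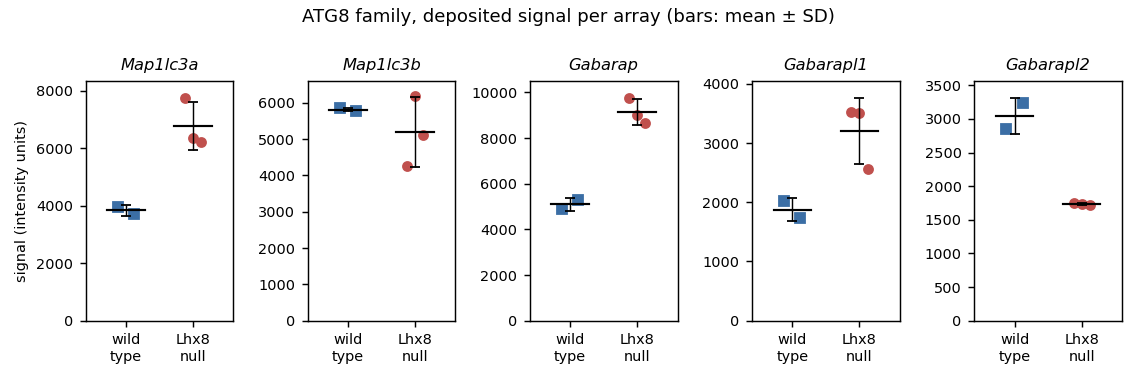
Deposited signal (y axis, intensity units, from 0) of the 5 ATG8 family genes in 2 wild type (blue squares) and 3 Lhx8 null (red circles) arrays, with the mean and SD in black. Map1lc3a, Gabarap and Gabarapl1 are higher on every null array, Gabarapl2 is lower on every null array, and Map1lc3b overlaps.

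Of the lysosome genes, Ctsb, a cysteine protease gene, rose. It read 8941.6, 9528.7 and 8088.9 on null arrays against 4931.9 and 4549.2 on wild type arrays, with no overlap. Its mean went from 4741 ± 271 (SD, n = 2) to 8853 ± 724 (SD, n = 3), a rise of 0.85 (SE 0.11, adjusted p = 0.000323). The aspartic protease gene Ctsd overlapped between groups, at 2952.5, 3512.4 and 3564.8 against 3475.4 and 2975.7 (0.08, SE 0.13, adjusted p = 0.651). Ctsl, another cysteine protease gene, overlapped as well, with 0.05 (SE 0.10, adjusted p = 0.718).

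Lamp1, a major glycoprotein gene of the lysosomal membrane, read 7243.2, 7417.7 and 6533.2 against 8322.2 and 8315.9 and fell by 0.34 (SE 0.10, adjusted p = 0.0217). That call was lost in 6 of 14 alternatives, among them the deposited scaling (-0.24, adjusted p = 0.0934) and the fits without null replicate 2 or 3 or wild type replicate 2 or 3 (adjusted p = 0.056 to 0.0946). Lamp2 had 0.12 (SE 0.10) at its brightest probe set and -0.86 (SE 0.30, adjusted p = 0.0806 over all probe sets) at another, where the arrays read 903.6, 1660.2 and 2007.9 against 2936.8 and 2502.7. Tfeb, the gene of a transcription factor of lysosome genes, was below the brightness cutoff of about 150 on average. It read 222.1, 261 and 101.4 against 47.9 and 61.4, and when dim genes were kept in the fit it had 1.28 (SE 0.40, adjusted p = 0.0416). Over all probe sets it did not pass (adjusted p = 0.063).

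**Figure D4:**
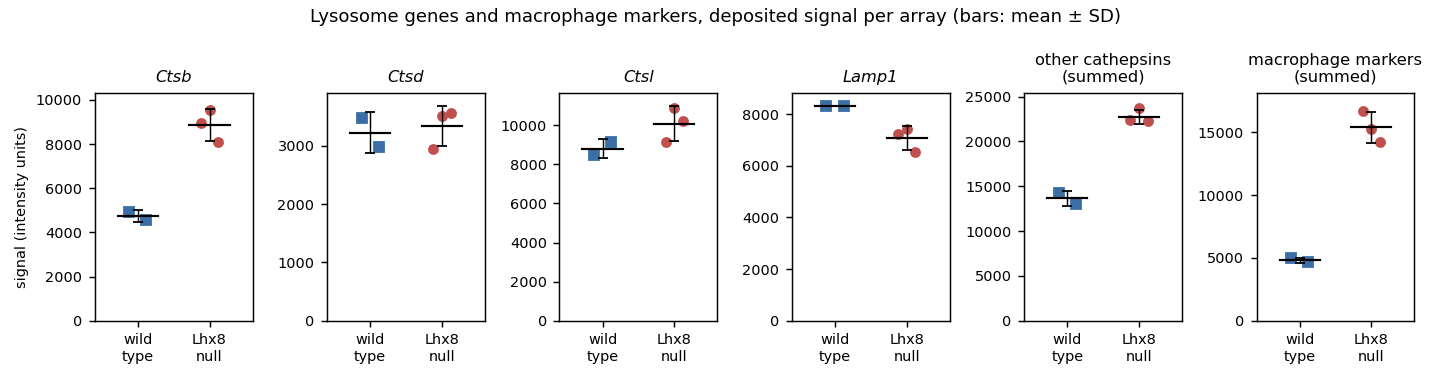
Deposited signal (y axis, intensity units, from 0) of Ctsb, Ctsd, Ctsl and Lamp1, and the summed signal of 13 other cathepsin and protease genes and of 16 macrophage markers, in 2 wild type (blue squares) and 3 Lhx8 null (red circles) arrays, with the mean and SD in black. Ctsb, the summed cathepsins and the macrophage markers are higher on every null array, Lamp1 is lower on every null array, and Ctsd and Ctsl overlap.

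TFEB binds the CLEAR element, whose core is the palindrome CACGTG, so the promoters of the members were searched for it. RefSeq promoters (GRCm38.p6, 250 bases before to 50 after a start) matched 30 of the 37 genes by symbol, and 7 of the 30 (23.3%) held CACGTG, against 8.09% of all 27025 genes and 7.15% of all 32851 promoters of that length. The palindrome reads alike on both strands. The 7 were Atg14, Atg3, Atg5, Atg7, Lamp1, Ctsd and Ctsl. Windows from 120 bases before to 20 after the start are printed 5′ to 3′ on the gene's strand, with each CACGTG in capitals. Lamp1, Atg3, Atg5 and Atg14 are shown as the genes with the core that fell in the main fit, Ctsd as one with the core that did not pass, and Gabarap as a riser without it.

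Lamp1, chr8:13159041-13159180, plus strand: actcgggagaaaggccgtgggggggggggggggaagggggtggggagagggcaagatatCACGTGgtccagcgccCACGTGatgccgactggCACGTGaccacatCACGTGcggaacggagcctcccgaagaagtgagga
Atg3, chr16:45158709-45158848, plus strand: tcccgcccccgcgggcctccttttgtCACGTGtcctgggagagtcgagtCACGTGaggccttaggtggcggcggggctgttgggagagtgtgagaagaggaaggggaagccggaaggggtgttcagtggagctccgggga
Atg5, chr10:44268219-44268358, plus strand: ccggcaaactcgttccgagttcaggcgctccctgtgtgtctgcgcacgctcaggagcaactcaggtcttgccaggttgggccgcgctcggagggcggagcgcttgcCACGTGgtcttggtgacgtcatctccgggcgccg
Atg14, chr14:47568415-47568554, minus strand: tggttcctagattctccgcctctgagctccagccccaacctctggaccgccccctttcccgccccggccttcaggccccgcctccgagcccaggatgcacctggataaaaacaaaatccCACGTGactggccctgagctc
Ctsd, chr7:142387808-142387947, minus strand: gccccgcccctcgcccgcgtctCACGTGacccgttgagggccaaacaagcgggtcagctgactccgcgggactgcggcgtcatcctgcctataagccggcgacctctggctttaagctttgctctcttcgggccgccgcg
Gabarap, chr11:69991250-69991389, plus strand: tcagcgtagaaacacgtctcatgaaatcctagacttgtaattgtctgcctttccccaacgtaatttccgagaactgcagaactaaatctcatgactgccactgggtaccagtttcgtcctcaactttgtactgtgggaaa

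The Lamp1 window held 4 copies of the core, first bases 61, 45, 28 and 15 bases before the start, and Atg3 held 2, at 94 and 71 bases. Atg5 had 1 at 14 bases, and that of Atg14 began on the last base before its start. Ctsd had 1 at 98 bases and another, outside the window, at 245. Of the 7 genes with the core 4 were lower and 3 did not pass, and 1 of the 4, Lamp1, lost its call in 6 of 14 alternatives. Of 22 tested members whose promoters lacked the core 4 were lower and 3 higher, and no such faller is printed. Over all tested genes with a RefSeq promoter, 25.4% of 1061 with the core and 22.2% of 7811 without it were lower. The shares that were higher were 19.6% with the core and 25.2% without it. A match describes these letters only, and binding was not measured.

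Most members had several probe sets, 10 had 1. Of the 90 probe sets of the members 11 were higher, 15 lower and 64 did not pass, in a fit over 45037 probe sets of which 21.0% passed (10.7% higher, 10.3% lower). None of the 27 below the brightness cutoff passed. Of 16 genes with more than 1 probe set above it, 6 had every such probe set past the threshold in 1 direction. These were Becn1, Atg5, Atg12, Map1lc3a, Gabarapl1 and Ctsb. The dimmer Atg12 probe set read 293.1, 342.8 and 388 against 1052.4 and 1573.4 and fell by 1.88 (SE 0.22, adjusted p = 0.000939), more than the brighter one. For 7 of the 16 genes the signs differed, though no gene passed in both directions. Wipi1 ranged from -0.27 to 1.06 over 5 such probe sets, and Atg7 from -0.69 to 0.87 over 3. The probe sets used for Becn1, Wipi1 and Gabarapl1 carry a suffix for sequences shared between transcripts, and that of Map1lc3a one for possible cross-hybridisation. Other probe sets of all 4 genes, without those suffixes, passed in the same direction.

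**Figure D5:**
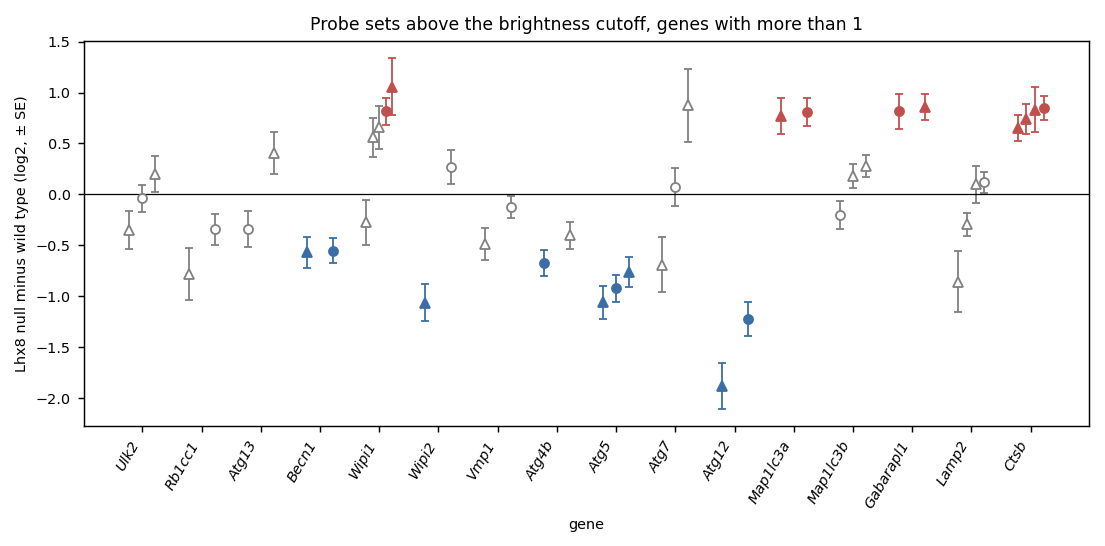
Difference between Lhx8 null and wild type ovaries (y axis, log2 scale, mean ± SE, 3 null and 2 wild type arrays) for each probe set above the brightness cutoff of the 16 genes with more than 1 (x axis). Circles are the brightest probe set and triangles the others, filled where the test over all probe sets passed (red higher, blue lower); Wipi2 and Lamp2 show the disagreement given in the text.

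Further genes of the pathway were counted from 8 lists of 153 names, of which 141 were measured and 133 tested. Of the 133, 28 were higher and 24 lower (median 0.03), beside 25.6% higher and 22.3% lower over all tested genes. With arrays centred on their medians 16 were higher and 39 lower, beside 1720 higher and 3422 lower of all 10916 tested genes. Of 18 further autophagy genes 5 fell and none rose. The fallers were Retreg1, a receptor gene for turnover of the endoplasmic reticulum (-1.04, SE 0.17), Bnip3, a receptor gene for mitochondria (-0.97, SE 0.13), the kinase gene Tbk1 (-0.79, SE 0.12), and Nrbf2 and Pik3r4 (-0.60 and -0.66). Nrbf2 lost its call in 5 of 14 alternatives, among them those without null replicate 2, wild type replicate 2 or wild type replicate 3. Nrbf2 and Pik3r4 encode subunits of the BECN1 and PIK3C3 complex. With median centring 10 of the 18 fell, beside the 3422 lower of all 10916 tested genes. Among 14 tested genes of fusion with the lysosome, Vamp8 and Ykt6, which encode SNARE proteins, rose by 0.76 and 0.63, and Vps41, a tethering subunit gene, fell by 0.46. Among 23 nutrient and energy sensing genes Tsc2, a brake on mTOR, rose by 0.60 (adjusted p = 0.0498), and Fnip1 and Rragd fell by 0.79 and 0.72. Tsc2 did not pass in 10 of 14 alternatives, among them the deposited scaling, an added constant of 1, the fits without a null replicate and that without wild type replicate 3. With median centring 0 of the 23 were higher and 7 lower, beside the 1720 higher and 3422 lower of all 10916 tested genes. Fnip1 and Rragd were lost without wild type replicate 2 and also without wild type replicate 3. Ykt6 was lost in 5 alternatives, among them median centring and the fits without null replicate 2 or 3 or wild type replicate 2, and Vps41 without wild type replicate 2.

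Of 40 tested genes for lysosomal enzymes 20 were higher and 2 lower, and of 32 for the lysosomal membrane and its proton pump 3 were higher and 14 lower, beside 25.6% higher and 22.3% lower over all tested genes. The lists were chosen with earlier results of these data known, and the difference between these sets was not tested. Of 12 other cathepsin and lysosomal protease genes 8 rose and none fell (median 0.84). Among the risers Ctso lost its call in 4 of 14 alternatives, and Ctsa and Ctsc lost theirs with the mean of probe sets. Ctse, an aspartic protease gene of epithelia and immune cells, rose by 3.13 (SE 0.24), from a mean of 162 to 1639. Ctsk and Ctss rose by 2.05 (SE 0.16) and 1.24 (SE 0.16). Of 28 glycosidase, lipase, sulfatase and cofactor genes 12 rose and 2 fell (median 0.40). Arsb rose by 1.61 (SE 0.17), Man2b1 by 1.26 (SE 0.14) and Galns by 1.01 (SE 0.22), while Gla and Ppt1 fell by 0.83 and 0.35. With median centring, the mean of probe sets, or without wild type replicate 3, 7 of the 28 were higher. Ppt1 lost its call in 7 of 14 alternatives, among them the fits without null replicate 2 or 3 or either wild type array. Gla was lost without either wild type array, Galns without wild type replicate 3 and Man2b1 with the mean of probe sets. Macrophage markers were higher too, in 13 of 14 tested, with Csf1r at 1.94, C1qb at 1.85, Mrc1 at 1.55 and C1qa at 2.18. So were oviduct epithelium, stromal and endothelial markers, in 8 of 9, 11 of 11 and 7 of 10 tested. The part of any of these cell types in the result was not tested.

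Of 15 lysosomal membrane genes 6 fell and 2 rose (median -0.22). Ostm1, Ctns, a cystine transporter gene, and Mcoln1, a calcium channel gene, fell by 1.00 (SE 0.15), 0.95 (SE 0.28) and 0.80 (SE 0.14), and Scarb2 and Tmem9 rose by 0.54 and 0.47. Neither riser passed with median centring (0.23 and 0.19), and Tmem9 was also lost without null replicate 2 or either wild type array, as Ctns was without either wild type array. Without wild type replicate 2 the count of fallers was 3. Of 17 subunit genes of the V-ATPase, the pump that acidifies the lysosome, 8 fell and 1 rose (median -0.22). Atp6v1h fell by 1.12 (SE 0.14), Atp6v0b by 0.85 (SE 0.18) and Atp6v1b2 by 0.83 (SE 0.13). Among the fallers, Atp6v1h, Atp6v1g1 and Atp6v1e1 did not pass with the mean of probe sets. Atp6v1f lost its call in 6 of 14 alternatives, Atp6v1e1 in 3 and Atp6v1d in 1. The riser was Tcirg1, a subunit gene known from osteoclasts, at 0.57 (SE 0.16), which did not pass without wild type replicate 2 or 3 or with median centring. Of 6 tested transcription factor genes, Zkscan3 and Zkscan17 rose by 0.72 and 0.56, the latter not with median centring or without wild type replicate 3. Zkscan3 is known as a repressor of autophagy and lysosome genes. All 15 germ cell markers were lower too (among them Gtsf1 at -4.91, Elavl2 at -4.24, Padi6 at -6.64 and Zp3 at -6.30). So were 9 of 10 granulosa markers (median -1.09). Null signals of Padi6 (25 to 43.3) and Zp3 (16.3 to 24.9) lay below the brightness cutoff. The added constant of 16 therefore affects the size of those 2 differences. The part of either cell type in the falls was not tested.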

How the data were processed

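The authors deposited 1 intensity per probe set and array on a linear scale, from biotin-labelled target per the labels' protocols. The 2% trimmed mean was 500 on each array, which shows a scaling of whole arrays before deposit. GCOS is named for wild type samples, per the submitters' processing notes, and for null samples the software is not given in the sources used here. Wild type replicates are numbered 2 and 3 only. No 2 arrays were copies, and no detection calls were used here.

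Signals were put on the log2(signal + 16) scale. Medians of arrays differed by 0.38 there, so arrays were quantile normalised without the 64 control probe sets (limma 3.58.1, R 4.3.3). The medians were 7.00 to 7.18 on null and 6.80 and 6.83 on wild type arrays, so this step also removed a shift between groups. The source of that shift was not tested. Names came from the platform annotation (34945 of 45101 probe sets with 1 symbol), and for 34741 the identifier was found in RefSeq's GRCm38.p6 table. Each gene was given by its brightest probe set, and a filter removed 7277 dim genes, 40% of all (mean log2 under 7.37, a signal near 150). Null minus wild type was tested with lmFit and eBayes with a variance trend, all 5 arrays in 1 fit, and Benjamini-Hochberg adjustment over 10916 genes. A second fit covered all 45037 probe sets without a filter, with p-values adjusted over those. Since each replicate is a pool, p-values measure how pools vary, not single animals, and 3 against 2 arrays limit the precision. Only the limma test was also run on simulated gene values, not the normalisation, the choice of probe set or the filter. Far fewer genes were shifted there than passed in these data.

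Named were all members, Lhx8, up to 3 genes per direction with the largest change in each pathway list, and up to 4 marker genes with the smallest p. Nrbf2, Pik3r4 and the further list genes named for a lost call were added after their values were seen. Members and lists were chosen with earlier results of these data known. List genes without a singly named probe set were not analysed here. Plots used Python 3.11.15 with matplotlib 3.10.9.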

Additional observations from a re-analysis of the deposited data

How the results depend on the processing

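Of the 16 member genes past the threshold, 11 kept direction and call in all 14 alternatives; the exceptions were Uvrag, Atg3, Atg4b, Atg16l1 and Lamp1, and none of the 16 changed sign. Atg13, which passed only with median centring, had the other sign with the mean of its probe sets (0.10). With arrays centred on their medians the members counted 5 higher and 15 lower. That setting moved the median of all tested genes from 0.04 to -0.18. It gave 1720 higher genes in all against 2791, and 3422 lower against 2429. It also gave 7 lower initiation genes, 16 higher and 39 lower further pathway genes, and 6 higher and 23 lower member probe sets. With the deposited scaling 0 lysosome members were lower, and the same held for the variance model without a trend, which also left 4 higher and 9 lower probe sets. With no brightness filter, with 20% of genes left out as dim, and with the mean of a gene's probe sets, 2 lysosome members (Ctsb and Tfeb) were higher. The mean of probe sets left 4 lower conjugation genes. An added constant of 1 or 64 changed no member's call.

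Without a wild type array 1 is left there, and it is assumed to vary as the null arrays do. Leaving out 1 array at a time gave 1846 to 2916 higher and 1543 to 2622 lower genes in all. It gave 2 to 4 lower initiation, 6 to 7 lower conjugation and 0 to 1 lower lysosome members. Further pathway genes ranged from 18 to 30 higher and 14 to 27 lower, and member probe sets from 4 to 12 higher and 7 to 17 lower. Both wild type arrays lowered counts most when left out: without replicate 3 there were 1846 higher genes in all and 18 higher and 15 lower pathway genes, and without replicate 2 there were 14 lower pathway genes. The causes were not tested.

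The replicate numbers 2 and 3 stand in both groups. Deviations of same-numbered arrays from their group means correlated at -0.13 and 0.10. With 2 wild type arrays these deviations mirror each other, so the check can hardly show or exclude pairs. The main fit did not take the numbers as pairs. The replicate block, which in effect drops null replicate 1, gave 3068 higher and 2583 lower genes in all, 4 lower initiation and 4 higher conjugation members, with Rb1cc1 and Atg4a added to the calls. A signal near background limits what can be said of Tfeb, and probe sets that differ in sign limit Atg7 and Atg13, among others.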
